A study of Oryza sativa Japonica Group with 12 samples.

Results

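The heme branch of tetrapyrrole synthesis and the phytochromes that depend on it were followed in rice leaves through 7 genes, taken by locus ID from the 38978 rows of the count table. They are the ferrochelatase genes Os09g0297000 and Os05g0361200, the heme oxygenase genes HO1 (also called SE5, Os06g0603000) and HO2 (Os03g0395000), and the phytochrome genes phyA (Os03g0719800), phyB (Os03g0309200) and phyC (Os03g0752100). The names came with the list of IDs, since the count table gives no gene names. All 7 were present, and all 7 were among the 20217 rows abundant enough to test.

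Samples were leaves of rice cultivar Nipponbare grown in the field and harvested at 10 in the morning, in 3 groups of 4 libraries. Line8 (genotype Ami-YGL1_Line 8) and Line7 (Ami-YGL1_Line 7) are homozygous transgenic lines with the construct p35s-Ami-YGL1, an artificial microRNA against YGL1 under the 35S promoter, which is active in most plant tissues. WT is the same cultivar without the construct. YGL1 encodes chlorophyll synthase, the enzyme that adds the phytol tail to chlorophyllide. Each genotype is a single line, and no control construct was among the groups analysed here, so effects of the microRNA and of the transgene or its insertion site cannot be told apart. The labels give no plant age, and describe more than a single year and site without assigning libraries to them. Whether replicates came from separate plants is not stated, and p-values therefore cover only the spread between these libraries.

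Tetrapyrrole synthesis in plastids divides at protoporphyrin IX. Magnesium chelatase inserts magnesium and leads to chlorophyll, whereas ferrochelatase inserts iron and makes heme. Heme oxygenase opens the heme ring to biliverdin, and a later reductase turns biliverdin into phytochromobilin, the chromophore that phytochromes need to sense red and far-red light. In rice, loss of HO1 (the se5 mutant) leaves plants short of working phytochrome and early flowering whatever the day length. In Arabidopsis, the HO2 protein lacks the heme-binding histidine of HO1 and binds protoporphyrin IX. Rice has the 3 phytochromes listed here. phyA is the far-red sensor of seedlings, and its transcript is lowered by light in grasses, while phyB and phyC act in mature green leaves and can pair with each other as proteins.

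Library totals were 14746933 to 19822636 counts. Levels are given as CPM, the count as a share of its library's TMM-scaled total. The locus ID listed as the microRNA's target, Os05g0349700, held 23.8 to 33.4 CPM in the Line8 libraries, 27.4 to 34.4 CPM in Line7 replicates 1, 3 and 4, and 44.2 to 69.1 CPM in the WT libraries. Line7 replicate 2 held 68.1 CPM. Over all tested rows the mean Spearman correlation of that library was 0.925 with the other Line7 libraries and 0.977 with the WT libraries. Fold changes in Line7 are therefore given with and without replicate 2. Counts come from whole leaf, so fewer cells of a type and less RNA per cell cannot be told apart.

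Of the 7 genes, 3 rose (HO2, phyB and phyC), 1 fell (ferrochelatase Os09g0297000) and 3 did not pass the test in Line8 against WT. The test was edgeR's quasi-likelihood test, with p-values adjusted by Benjamini-Hochberg over all tested genes and a threshold of 0.05. Over all 20217 tested genes edgeR called 27.3% in this comparison, 15.5% higher and 11.8% lower. With upper-quartile scaling the calls among all genes divided into 13.4% higher and 15.6% lower, and the same 4 of the 7 genes were called. Groups that do not overlap, as in these 4 genes, were found in 31% of all tested genes. The median log2 fold change was 0.09 for the 7 genes and -0.07 for all tested genes.

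**Figure D1:**
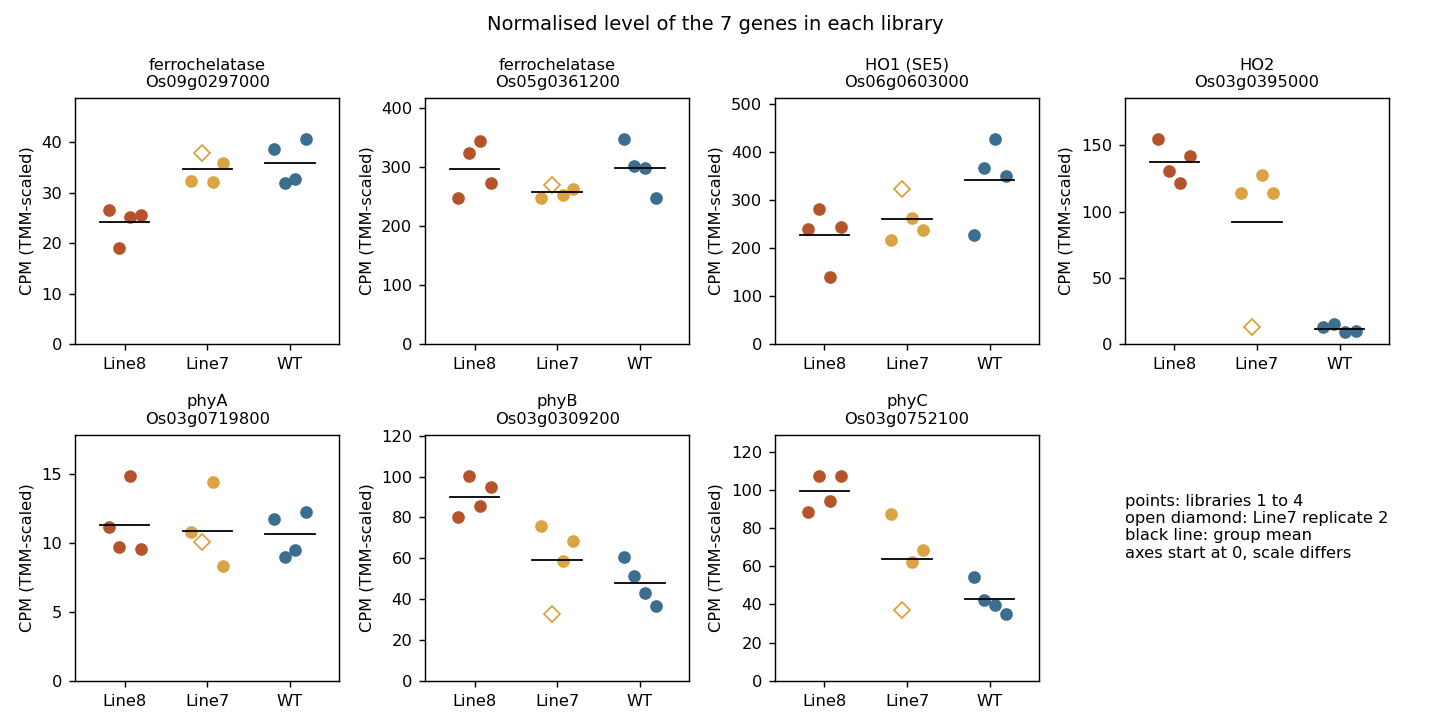
Normalised level (CPM, vertical axes from 0, scale differing between panels) of the 7 genes in the Line8, Line7 and WT libraries; points are libraries, the open diamond is Line7 replicate 2 and black lines are group means. HO2 lies at 121 to 155 CPM in Line8 and at 9.21 to 15.4 CPM in WT, with Line7 replicate 2 at 12.9 CPM, whereas phyA overlaps between all groups.

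Of the ferrochelatase genes, which make heme, Os09g0297000 fell in Line8, and Os05g0361200 did not pass the test in either line. Os09g0297000 held 26.7, 19.1, 25.2 and 25.6 CPM in Line8 (values are listed from replicate 1 to 4 throughout), and 32.4, 37.9, 32.2 and 35.9 CPM in Line7. In WT it held 38.6, 31.9, 32.7 and 40.6 CPM. Every Line8 library lay below every Line7 and every WT library, while Line7 and WT overlapped. Among all tested genes, 14.9% had every Line8 library below WT, and 5.16% had every Line8 library below Line7. The gene fell in Line8 against WT to a fold of 0.671 (log2 fold change -0.57, SE 0.149, edgeR adjusted p = 0.0143). An exact permutation test, two-sided, gave p = 0.0286, the smallest that 4 against 4 libraries allow.

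In Line7 the log2 fold change of Os09g0297000 was -0.06 (SE 0.149, edgeR adjusted p = 0.843), and -0.10 without replicate 2 (adjusted p = 0.662). The difference between the lines, -0.52 in Line8 against Line7 (95% interval -0.84 to -0.20, edgeR unadjusted p = 0.00403), did not pass the threshold over all genes (adjusted p = 0.203). Without Line7 replicate 2 it was -0.47 (edgeR adjusted p = 0.350). The average of the lines stood at -0.32 on the log2 scale against WT (SE 0.127, edgeR adjusted p = 0.0866). It was called lower there in 2 of 21 alternatives, upper-quartile scaling (-0.40, edgeR adjusted p = 0.0370) and limma-voom with sample quality weights (-0.27, adjusted p = 0.0432). That scaling shifted the median of all tested genes by -0.09, and the weighted fit called 51.3% of all genes.

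Os05g0361200, the other ferrochelatase gene, held 247, 324, 344 and 273 CPM in Line8, and 248, 269, 253 and 263 CPM in Line7. The WT libraries held 348, 303, 298 and 247 CPM. The 3 groups overlapped. The log2 fold change was -0.01 in Line8 (95% interval -0.36 to 0.34, edgeR adjusted p = 0.971) and -0.21 in Line7 (95% interval -0.56 to 0.14, edgeR adjusted p = 0.429). Without replicate 2 the Line7 value was -0.23 (edgeR adjusted p = 0.339). The sign in Line8 turned positive with RLE scaling (0.01).

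Ratios of 2 genes' counts within a library need no scaling between libraries. They are not corrected for transcript length, so their size is not a ratio of molecules, but they can be compared between libraries, and no test was made on them. The ratio of Os09g0297000 to Os05g0361200 counts was 0.108, 0.0589, 0.0734 and 0.0937 in Line8, and 0.127 to 0.141 in Line7. In WT it was 0.111, 0.105, 0.110 and 0.164. Line8 lay below Line7 in all libraries, as did 7.56% of the ratios of all other tested genes to Os05g0361200, and overlapped WT through Line8 replicate 1 and WT replicate 2.

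HO2 showed the largest change of the 7 genes in both lines. Its level was 155, 130, 121 and 142 CPM in Line8. The Line7 libraries held 114, 12.9, 128 and 114 CPM. The WT libraries held 12.8, 15.4, 9.21 and 9.90 CPM. All 4 Line8 libraries and 3 of 4 Line7 libraries thus lay far above every WT library, while Line7 replicate 2 lay inside the WT range. Among all tested genes, 16.1% had every Line8 library above every WT library. The counts behind these levels were 1888 to 2588 in Line8, 231 in Line7 replicate 2, 1652 to 2034 in the other Line7 libraries, and 150 to 284 in WT.

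HO2 rose 11.6-fold in Line8 against WT (log2 fold change 3.53, SE 0.521, edgeR adjusted p = 0.00187, exact permutation p = 0.0286). In Line7 the rise was 7.80-fold (log2 fold change 2.96, SE 0.509, edgeR adjusted p = 0.0146, exact permutation p = 0.0571), and without replicate 2 the log2 fold change was 3.33 (SE 0.188, edgeR adjusted p = 1.13e-06). The Line7 call was lost without WT replicate 1, 3 or 4 or Line7 replicate 1 or 3 (edgeR adjusted p from 0.0503 to 0.0675), and in limma-voom (adjusted p = 0.0774), while the log2 fold change remained 2.56 to 3.33 in all 22 alternative settings. Among 20217 tested genes, HO2 stood at rank 177 in Line8 and at rank 212 in Line7 when fold changes were ordered from the highest.

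With the lines averaged, HO2 rose against WT by a log2 fold change of 3.25 (SE 0.487, edgeR adjusted p = 0.00301), and 7 of 8 line libraries lay above every WT library. Line7 replicate 2 was the exception. How many of all tested genes share this pattern was not counted. Line8 against Line7 gave a log2 difference of 0.57 (95% interval -0.44 to 1.59, edgeR adjusted p = 0.540). Without Line7 replicate 2 that difference was 0.21 (SE 0.178, edgeR adjusted p = 0.642).

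HO2 and Os05g0349700, the listed target, divided the 12 libraries in the same way. The 7 libraries with 114 CPM or more of HO2 were the 7 with at most 34.4 CPM of Os05g0349700. The other 5 libraries, WT and Line7 replicate 2, had at most 15.4 CPM of HO2 and at least 44.2 CPM of Os05g0349700. As the libraries fell into separate clusters, no correlation over them is given for this pair. The division is not particular to these genes: 737 of 20210 rows had a Pearson's r above 0.95 with HO2 over the 12 libraries.

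**Figure D2:**
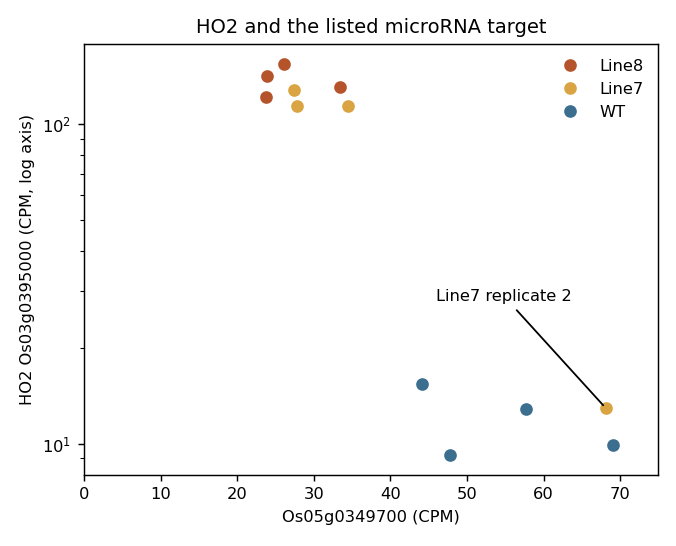
Level of HO2 (CPM, log axis) against that of Os05g0349700, the locus listed as the microRNA's target (CPM), with 1 point for each of the 12 libraries coloured by group. Line8 and 3 Line7 libraries lie at the upper left and the WT libraries at the lower right, where Line7 replicate 2 lies at 68.1 CPM of Os05g0349700 and 12.9 CPM of HO2.

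HO1, the heme oxygenase known to supply the phytochrome chromophore in rice, had lower mean levels in both lines, without passing edgeR's test in the full set. It held 239, 282, 140 and 244 CPM in Line8, and 217, 323, 263 and 236 CPM in Line7. WT libraries held 227, 365, 426 and 350 CPM. The groups overlapped through WT replicate 1, which lay below 3 of 4 Line8 and 3 of 4 Line7 libraries. The log2 fold change was -0.60 in Line8 (SE 0.245, edgeR adjusted p = 0.0851) and -0.40 in Line7 (SE 0.244, edgeR adjusted p = 0.315). Without Line7 replicate 2 the Line7 value was -0.52 (edgeR adjusted p = 0.153).

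HO1 stood at -0.50 on the log2 scale when the lines were averaged (SE 0.208, edgeR adjusted p = 0.0964). Leaving out WT replicate 1 brought HO1 past the threshold in Line8 (log2 fold change -0.75, edgeR adjusted p = 0.0379) and in the averaged lines (-0.65, adjusted p = 0.0469). Leaving out Line7 replicate 2 did so in the averaged lines (-0.56, edgeR adjusted p = 0.0486). In limma-voom with sample quality weights HO1 was called lower in Line8 (-0.63, adjusted p = 0.00435), in Line7 (-0.68, adjusted p = 0.00357) and in the averaged lines (-0.66, adjusted p = 0.00103), in fits that called 41.6 to 51.3% of all genes. HO1 was thus called in 2 of 22 alternatives in Line8, 1 of 22 in Line7 and 3 of 21 with the lines averaged. Leaving out WT replicate 3 moved the other way, to -0.46 in Line8 (edgeR adjusted p = 0.249) and -0.38 with the lines averaged (adjusted p = 0.297). Line8 against Line7 gave -0.20 (95% interval -0.73 to 0.33, edgeR adjusted p = 0.682), and -0.08 without Line7 replicate 2 (adjusted p = 0.911).

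The balance of both heme oxygenase transcripts was read as the ratio of HO1 to HO2 counts. It was 1.54, 2.16, 1.15 and 1.72 in Line8, and 1.90, 25.0, 2.06 and 2.07 in Line7. In WT it was 17.7, 23.7, 46.3 and 35.4. The HO1 reads thus exceeded those of HO2 by 1.15 to 2.16 times in 7 line libraries and by 17.7 to 46.3 times in the remaining 5. HO2 alone divided the libraries in this way, so the ratio is not a separate result. How many other genes' ratios to HO2 divide likewise was not counted.

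**Figure D3:**
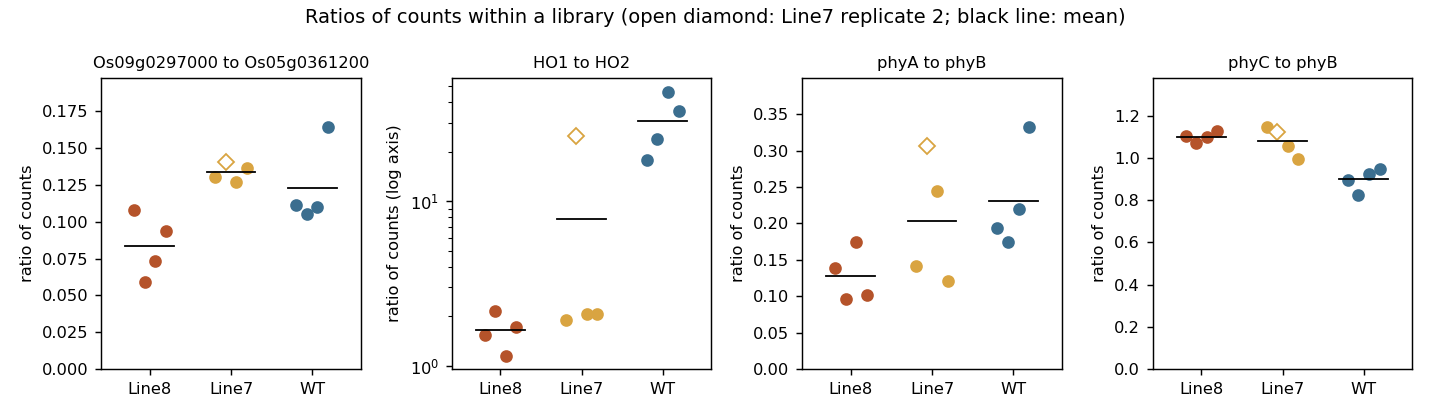
Ratio of counts within each library for 4 pairs of the 7 genes in Line8, Line7 and WT (points are libraries, the open diamond is Line7 replicate 2, black lines are means, and the axis for HO1 to HO2 is logarithmic). HO1 to HO2 is 1.15 to 2.16 in Line8 and 17.7 to 46.3 in WT, and phyC to phyB is 0.994 or more in all 8 line libraries and at most 0.949 in WT.

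phyB and phyC rose in Line8, while the level of phyA overlapped between all groups. phyC held 88.6, 107, 94.1 and 107 CPM in Line8, and 87.1, 37.1, 62.1 and 68.3 CPM in Line7. In WT it held 54.6, 42.1, 39.9 and 35.0 CPM. Every Line8 library lay above every WT library, as in 16.1% of all tested genes, and above every Line7 library, as in 4.8% of them. Line7 replicates 1, 3 and 4 lay above every WT library.

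phyC rose 2.32-fold in Line8 (log2 fold change 1.21, SE 0.230, edgeR adjusted p = 0.00363, exact permutation p = 0.0286). In Line7 its log2 fold change was 0.57 (SE 0.228, edgeR adjusted p = 0.133), and 0.76 without replicate 2 (SE 0.176, adjusted p = 0.00835). With the lines averaged, phyC rose by a log2 fold change of 0.89 (SE 0.205, edgeR adjusted p = 0.00986), with 7 of 8 libraries above every WT library. The exception was Line7 replicate 2, and the share of all tested genes with this pattern was not counted. Line8 against Line7 gave 0.64 (95% interval 0.15 to 1.13, edgeR unadjusted p = 0.0144, adjusted p = 0.237), and 0.45 without Line7 replicate 2 (adjusted p = 0.390), neither of which was called.

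phyB, the main red-light phytochrome of green plants, held 80.2, 100.4, 85.5 and 94.8 CPM in Line8. In Line7 it held 75.9, 33.0, 58.8 and 68.7 CPM, and in WT 60.8, 51.2, 43.2 and 36.8 CPM. Every Line8 library lay above every WT library, as in 16.1% of all tested genes, and above every Line7 library, as in 4.8%. Line7 overlapped WT in replicate 3, and replicate 2 was the lowest of all 12 libraries.

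phyB rose 1.88-fold in Line8 (log2 fold change 0.91, SE 0.237, edgeR adjusted p = 0.0146, exact permutation p = 0.0286). In Line7 the log2 fold change was 0.30 (SE 0.236, edgeR adjusted p = 0.438), and 0.50 without replicate 2 (SE 0.177, adjusted p = 0.0583). With the lines averaged it was 0.60 (SE 0.209, edgeR adjusted p = 0.0511), just short of the threshold. It passed without Line7 replicate 2 (0.70, edgeR adjusted p = 0.00344), WT replicate 1 (0.74, adjusted p = 0.0446) or Line8 replicate 3 (0.65, adjusted p = 0.0423). It also passed with RLE scaling (edgeR adjusted p = 0.0484), with library size only (0.0475), with at least 10 counts in every library (0.0385), in DESeq2 (0.0240) and in limma-voom with sample quality weights (0.000135), which makes 8 of 21 alternatives. Line8 against Line7 gave 0.61 (95% interval 0.10 to 1.12, edgeR adjusted p = 0.260), and 0.41 without Line7 replicate 2 (adjusted p = 0.417).

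phyA, the far-red sensor, rested on 120 to 251 counts per library. It held 9.57 to 14.9 CPM in Line8, 8.30 to 14.4 CPM in Line7 and 8.94 to 12.3 CPM in WT. The log2 fold change was 0.09 in Line8 (95% interval -0.37 to 0.56, edgeR adjusted p = 0.775) and 0.04 in Line7 (95% interval -0.43 to 0.50, edgeR adjusted p = 0.932). The Line7 value was 0.07 without replicate 2 (edgeR adjusted p = 0.854). With upper-quartile scaling the full set gave -0.02 in Line8 and -0.03 in Line7, while that scaling shifted the median of all tested genes by -0.12 in Line8 and -0.06 in Line7.

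The ratio of phyC to phyB counts was 1.11, 1.07, 1.10 and 1.13 in Line8, and 1.15, 1.12, 1.06 and 0.994 in Line7. In WT it was 0.897, 0.823, 0.925 and 0.949. All 8 line libraries lay above all 4 WT libraries, as did 2.64% of the ratios of all other tested genes to phyB. Line7 replicate 2, which lay within the WT range for HO2 and phyC, had a ratio of 1.12, above the WT range of this ratio. Its level of Os05g0349700 was 68.1 CPM, inside the WT range. Its mean Spearman correlation was 0.977 with WT, against 0.925 within Line7. Which genotype this library represents was not tested, and a single ratio does not settle it. The means were 1.10 ± 0.0249 in Line8, 1.08 ± 0.0696 in Line7 and 0.899 ± 0.0546 in WT (SD, n = 4 each).

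The ratio of phyA to phyB counts was 0.139, 0.0963, 0.174 and 0.101 in Line8, and 0.142, 0.306, 0.245 and 0.121 in Line7. It was 0.193, 0.175, 0.220 and 0.333 in WT. Line8 lay below WT in all libraries, by a narrow gap between 0.174 in Line8 replicate 3 and 0.175 in WT replicate 2. Of the ratios of all other tested genes to phyB, 49.1% had every Line8 library below WT, so phyA does not stand apart from other genes in this ratio. Line7 spanned both ranges.

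**Figure D4:**
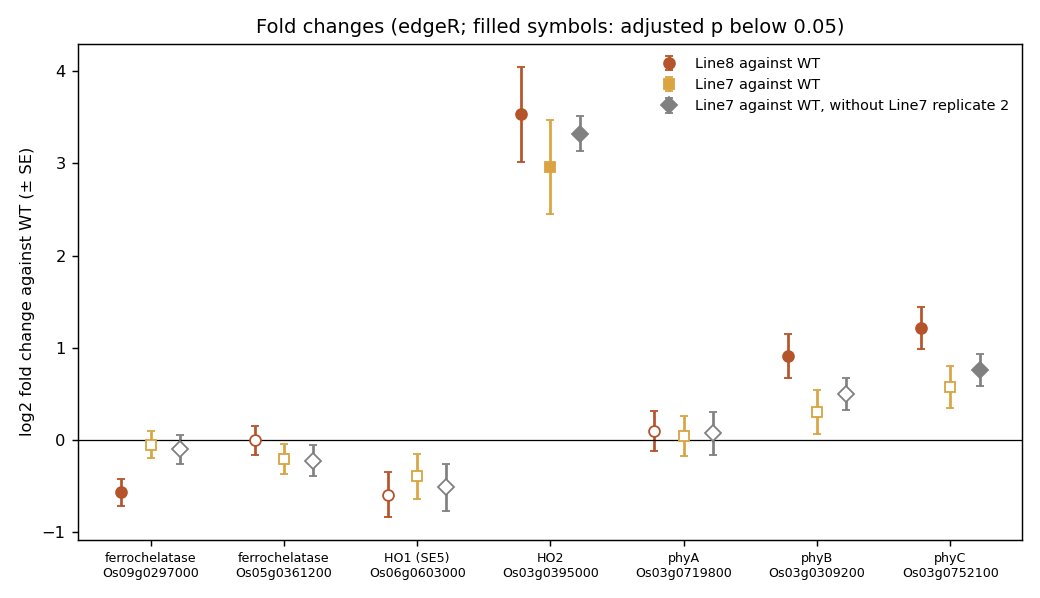
Log2 fold change against WT with its SE (edgeR) of the 7 genes in Line8, in Line7 and in Line7 without replicate 2, with filled symbols where the adjusted p is below 0.05. HO2 is at 3.53 in Line8 and 2.96 in Line7, phyC at 1.21 and 0.57, and phyA near 0 in both.

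In Line7 against WT, 1 of the 7 genes rose (HO2) and 0 fell, beside 6.97% of all tested genes called, 5.92% higher and 1.05% lower. Without Line7 replicate 2, 2 rose (HO2 and phyC), beside 25.2% of all genes tested in that fit. By edgeR 2 were higher and 0 lower at an unadjusted p below 0.05 in the full set. Of these, phyC had the higher p (edgeR, 0.0268), at rank 4066 of 20217 tested genes ordered from the lowest p. In limma-voom and without WT replicate 1, 3 or 4 or Line7 replicate 1 or 3, 0 passed the adjusted threshold, with an unadjusted p for HO2 of 0.000194 to 0.000355 in edgeR and 0.00131 in limma-voom. Nearly all calls were lost in those fits, which called 0.0341 to 0.0877% of all tested genes in edgeR and 0.109% in limma-voom. The median log2 fold change was 0.04 for the 7 genes and -0.01 for all tested genes.

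With the lines averaged against WT, 2 rose (HO2 and phyC) and 0 fell, beside 24.3% called among all tested genes, 14.2% higher and 10.1% lower. At an unadjusted p below 0.05 edgeR had 3 higher and 2 lower. Such p-values were common: HO1, with the highest p among them (edgeR, 0.0322), stood at rank 6746 of 20217 tested genes ordered from the lowest p. DESeq2 called 3 of the 7, beside 30.1% of all genes, and limma-voom 2, beside 23.1%, all higher. Without Line7 replicate 2, 3 rose and 1 fell, HO2, phyC, phyB and HO1, beside 35% of all genes tested in that fit. Without WT replicate 1 the same 4 genes were called, beside 17.7% of all genes.

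In Line8 against Line7, edgeR called 0 of the 7 genes, beside 0.0247% of all tested genes. DESeq2 also called 0, beside 2.34% of all genes, and limma-voom 0, beside 0.00989%. In DESeq2 Os09g0297000 was close to the threshold (adjusted p = 0.0507). At an unadjusted p below 0.05 edgeR had 3, with phyB and phyC higher and Os09g0297000 lower in Line8. The highest p among them, that of phyB (edgeR, 0.0225), stood at rank 1742 of 20217 tested genes ordered from the lowest p. In these 3 genes all 4 Line8 libraries lay outside the Line7 range, as did 9.97% of all tested genes. Both comparisons with WT share the WT libraries, so the values of Line8 and Line7 above are not independent.

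**Figure D5:**
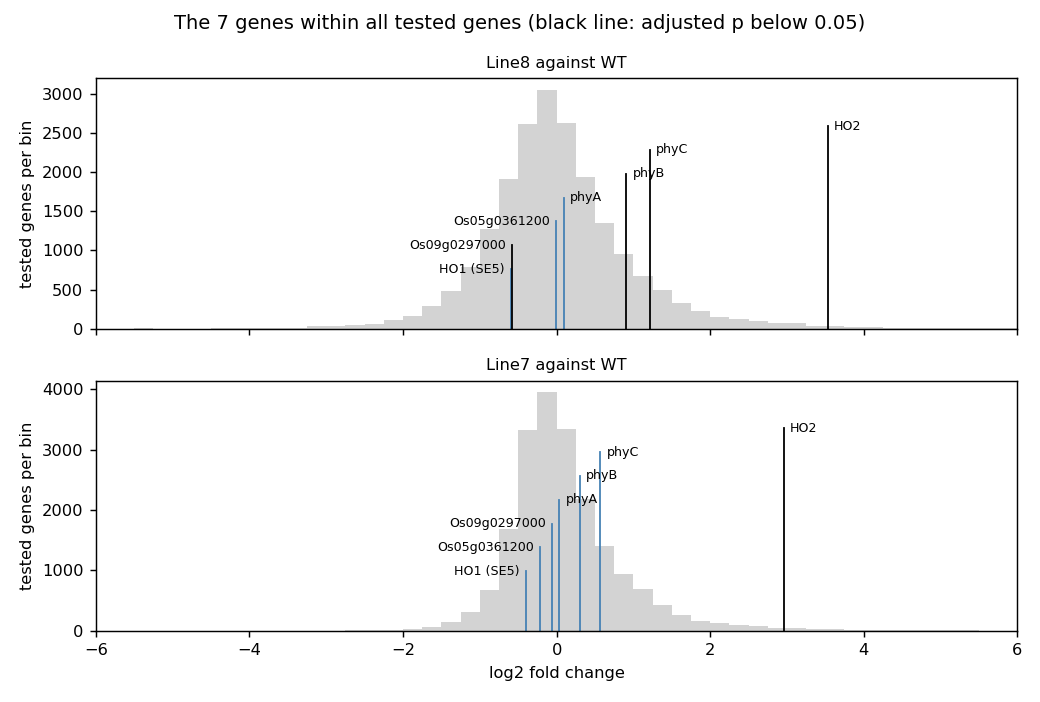
Number of tested genes in bins of log2 fold change (grey bars; axis limited to -6 to 6) for Line8 against WT above and Line7 against WT below, with a vertical line for each of the 7 genes, black where the adjusted p is below 0.05 and blue otherwise; line heights only separate the names. HO2 stands at 3.53 in Line8 and 2.96 in Line7, in the right tail, and the other 6 genes lie between -0.60 and 1.21.

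Rows with a pattern over the 12 libraries like that of each gene were sought by Pearson's r of log2 CPM, as a description. The row most like HO2 was Os01g0144100, with r = 0.998 and Spearman's rho = 0.965, and 737 of 20210 rows had an r above 0.95 with HO2. Os01g0144100 held 116 to 139 CPM in Line8, 103, 4.04, 108 and 92.2 CPM in Line7 and 2.64 to 5.74 CPM in WT, so it was low in Line7 replicate 2 as HO2 was. The row most like phyC was Os03g0597200 (r = 0.987, rho = 0.958), and 136 rows had an r above 0.95 with phyC. For phyB and HO1 there were 34 and 27 such rows, for phyA 1, and for each ferrochelatase gene 0. The libraries fall into separate sets, so any row that differs between those sets correlates with HO2.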

How the data were processed

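Leaf RNA was extracted with Trizol, per the labels' protocols. The authors' deposited file holds raw counts, whole numbers for each annotated gene in 12 library columns, each matched to 1 sample by its description. Aligner, counter, genome build and strandedness were not given in the sources used here, so overlapping or antisense genes cannot be told apart, and no gene coordinates or sequences are given. The RefSeq gene table used (assembly ASM3414082v1) does not pair the 7 locus IDs with names. Their names came with the member list. Members, lists and tests were chosen with earlier results of these data known. Lists of other tetrapyrrole genes and leaf markers were not used, since no table names their IDs, and the leaf label was not checked against markers.

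The tests used edgeR 4.0.16 under R 4.3.3 (filterByExpr on group, TMM, glmQLFit and glmQLFTest with robust estimation, all 12 libraries, group as factor). P-values were adjusted by Benjamini-Hochberg over 20217 rows at a threshold of 0.05. Each SE is the fold change over the root of its F statistic, and 95% intervals use the t distribution with the fit's degrees of freedom. Likeness used log2 of CPM plus 0.5. All 7 genes and the target were named by rule, and the single row most like each gene was sought, of which 2 are printed. Alternatives were RLE, upper-quartile and library-size scaling, no filter, at least 10 counts in every library, DESeq2 1.42.0, limma-voom (limma 3.58.1), only the libraries compared, a replicate block and leaving out each library. limma-voom with sample quality weights was added after seeing the data. Between any pair of libraries (66 pairs), chi-square per degree of freedom was 14.4 to 242, so none was a repeat of another. The lowest value, 14.4, was between WT replicate 4 and Line7 replicate 2.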

Additional observations from a re-analysis of the deposited data

Results flagged for a closer look

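In Line7, replicate 2 stood apart from the other 3 libraries for HO2, with 12.9 CPM against 114 to 128 CPM, and for the ratio of HO1 to HO2 counts, with 25.0 against 1.90 to 2.07. Both values lay within the WT range. In WT, replicate 4 stood apart for the ratio of Os09g0297000 to Os05g0361200 counts, with 0.164 against 0.105 to 0.111. These were 3 of 33 groups of 4 libraries examined by Dixon's test, which marks about 1 in 20 groups by chance. The first 2 share the HO2 counts of 1 library.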

How the results depend on the processing

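In Line8 against WT, the calls of HO2, phyB, phyC and Os09g0297000 held in all 22 alternatives. These gave 4 or 5 called genes of the 7, beside 16.8 to 48.2% of all rows. HO2 and phyC held in all 21 alternatives with the lines averaged. In Line7 against WT, 0 genes were called in limma-voom (beside 0.109% of all rows) and 4 with sample quality weights (beside 41.6%), and leaving out single libraries gave 0 to 2 (beside 0.0341 to 25.2%). With the lines averaged, sample quality weights gave 5 (beside 51.3%), leaving out single libraries 2 to 4 (beside 11.2 to 35%), and RLE, upper-quartile and library-size scaling, DESeq2 and at least 10 counts in every library gave 3 (beside 22.1 to 30.1%). Line8 against Line7 had 0 called genes throughout, beside 0 to 2.34% of all rows. The cause of these shifts was not tested.

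The sign of a log2 fold change turned in 26 values, 9 under other settings and 17 without a library, and each of these values was uncalled. For Os05g0361200 in Line8 the log2 fold change was 0.0116 with RLE scaling, 0.0134 with at least 10 counts in every library, 0.0116 in DESeq2 and 0.0392 with only the libraries compared, and -0.0902 to 0.118 without single libraries. With upper-quartile scaling phyA was at -0.0294 in Line7, -0.0235 in Line8 and -0.0264 with the lines averaged. Without single libraries phyA ran from -0.127 to 0.183 in Line7, -0.0258 to 0.182 in Line8, -0.0168 to 0.160 with the lines averaged and -0.0818 to 0.219 in Line8 against Line7, and Os09g0297000 from -0.133 to 0.00760 in Line7. With sample quality weights, Line8 against Line7 was 0.0557 for HO1 and -0.0466 for phyA.

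Deviations of libraries with the same replicate number correlated at -0.41 to 0.36, above 0.1 in 5 of 12 pairs, and 4 of 12 libraries correlated best with their own number, so the numbers were not taken as pairs. The replicate block called 1 gene in Line7, 4 in Line8, 2 with the lines averaged and 0 in Line8 against Line7, as without it. Over all rows, in the same order, the block fit called 2.35, 23.9, 21.1 and 0%. The fit without the block called 6.97, 27.3, 24.3 and 0.0247%. With the block, HO2 in Line7 had an edgeR adjusted p of 0.0460. The lowest counts were 120 to 251 per library for phyA and 150 to 284 in WT for HO2. In Line8 against WT the SE of phyA was 0.216, below HO1 (0.245), phyB (0.237) and phyC (0.230). It was above the ferrochelatase genes Os09g0297000 (0.149) and Os05g0361200 (0.162). The SE of HO2 was 0.521, and 0.184 without Line7 replicate 2. Adding 1 count to each gene moved every mean ratio by less than its SD. With 120 or more counts of each gene in every library, 1 count could move a ratio only slightly, so this says little.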
